A study of Mus musculus with 4 samples.

Results

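The S100 calcium-binding proteins were examined here in cultured primary myoblasts of Tet2 knockout (KO) and wild type (WT) mice. The 10 genes described were S100a1, S100a3, S100a4, S100a6, S100a8, S100a9, S100a10, S100a11, S100a13 and S100a16, taken by their symbols from a deposited expression table of 24445 genes. All 10 were present, and all 10 had a value of 1 FPKM or more when both groups were averaged, as did 11692 genes of the table. FPKM counts the sequenced fragments of a transcript per kilobase of its length and relative to the mapped fragments of the library. The main comparison sets S100a8 and S100a9, best known from myeloid cells, against the 8 other members. Most of these are known from myoblasts or many cell types, while S100a3 is known from the hair cuticle.

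Bulk RNA sequencing was done on 4 libraries, 2 from WT and 2 from Tet2 KO animals, all of strain C57BL/6. Tet2 is a dioxygenase that oxidises 5-methylcytosine in DNA, and the KO animals carried a constitutive deletion of exon 3 in every tissue. The study's methods give male mice of 8 to 10 weeks unless stated otherwise. Muscle stem cells (satellite cells) were isolated from the hindlimb by flow sorting for viable cells without CD45, CD11b, CD31 and Sca1 and with CD34 and Integrin a7, and were grown on collagen for at least 3 days in proliferation medium, by which time they were MyoD+ myoblasts. Both groups had the same sort and culture. The labels do not say whether the libraries of a group came from separate animals.

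The table held 1 FPKM value per gene and group, named here the authors' group value, so no SD and no n can be given. The authors' own test columns were not used, and whether a difference was larger than the spread between replicates was not tested here. The sequencing depth is unknown. In the text a ratio is log2((Tet2 KO FPKM + 1) / (WT FPKM + 1)), positive where Tet2 KO was higher, and the 2-fold mark is a ratio of at least 1 or at most -1. The added 1 understates the ratio of genes with low values.

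S100 proteins are small proteins that carry a pair of EF-hands, the helix-loop-helix motif that holds a calcium ion. Most form dimers, open a binding face when calcium rises, and then attach to target proteins such as annexins, myosin or membrane pumps. S100a8 and S100a9 form the heterodimer calprotectin, an abundant cytosolic protein of neutrophils and monocytes that binds zinc and manganese and, once released, acts on receptors such as Tlr4. S100a1 is the member best known from heart and skeletal muscle, and S100a4, S100a6, S100a10 and S100a11 are common in growing mesenchymal cells.

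All 10 genes lie on chromosome 3, and the positions given are those of the table in build mm9. From left to right, the first block held S100a1, S100a13, S100a16, S100a3, S100a4, S100a6, S100a8 and S100a9 within 185 kb, at chr3:90314956-90499643. S100a8 (chr3:90472993-90473956, plus strand) and S100a9 (chr3:90496552-90499643, minus strand) closed this block, 22.6 kb apart and pointing toward each other. S100a11 and S100a10 lay 2825 kb beyond it, across a stretch of 55 genes in which none reached a mean FPKM of 1. In GENCODE vM1, annotated on the same build, the longest coding transcript of S100a8 has 3 exons, 2 of them coding, and encodes 89 amino acids, and that of S100a9 also has 3 exons with 2 coding and encodes 113.

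The sequence just before the start of a gene is where methylation of CG dinucleotides, the substrate of Tet enzymes, is often studied, so 250 bases upstream of the RefSeq start are shown for both calgranulin genes and for 2 members of near-equal level in both groups. The sequences are from RefSeq on build GRCm38.p6, whose coordinates differ from those of mm9 above, and run 5′ to 3′ on the strand of the gene, with CG dinucleotides in capitals. They span chr3:90668821-90669070 (plus) for S100a8, chr3:90695722-90695971 (minus) for S100a9, chr3:90612644-90612893 (plus) for S100a6 and chr3:93520246-93520495 (plus) for S100a11.
S100a8: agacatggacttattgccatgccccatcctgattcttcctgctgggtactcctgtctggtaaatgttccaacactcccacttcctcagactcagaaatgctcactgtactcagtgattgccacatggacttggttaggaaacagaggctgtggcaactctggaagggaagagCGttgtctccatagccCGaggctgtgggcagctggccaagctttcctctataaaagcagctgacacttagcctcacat
S100a9: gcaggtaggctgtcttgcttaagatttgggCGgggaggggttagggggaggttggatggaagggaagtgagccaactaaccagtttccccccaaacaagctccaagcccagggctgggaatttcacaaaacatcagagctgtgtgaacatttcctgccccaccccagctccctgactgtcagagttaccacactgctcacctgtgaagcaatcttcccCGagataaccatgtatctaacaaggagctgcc
S100a6: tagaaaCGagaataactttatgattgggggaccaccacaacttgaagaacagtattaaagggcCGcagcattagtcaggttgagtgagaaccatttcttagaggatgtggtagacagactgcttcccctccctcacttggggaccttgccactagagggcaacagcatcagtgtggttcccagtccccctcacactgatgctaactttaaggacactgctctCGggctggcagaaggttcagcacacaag
S100a11: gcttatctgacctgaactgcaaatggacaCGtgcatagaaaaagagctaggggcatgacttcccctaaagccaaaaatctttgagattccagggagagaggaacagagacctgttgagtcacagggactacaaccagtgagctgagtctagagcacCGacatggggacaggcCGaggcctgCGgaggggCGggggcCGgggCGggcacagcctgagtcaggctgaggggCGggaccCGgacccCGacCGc

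S100a8 and S100a9 each held 2 CG dinucleotides in this window, against a median of 6 over 32851 RefSeq windows of the same length and an interquartile range of 2 to 16. The abundant members S100a6 and S100a4, with ratios of 0.13 and -0.27, held 3 and 2. Whether the CG content bears on the ratios was not tested. The windows of S100a1, S100a11 and S100a13 were richer, with 8, 11 and 13. Those of S100a1 and S100a13 lie on opposite strands and overlap, so some CG dinucleotides were counted in both. S100a16 and S100a3 have several annotated starts, with 1 to 3 and 0 to 5 CG dinucleotides. The methylation of these bases was not analysed here. The study reported that hypermethylation in Tet2 KO myoblasts was enriched in introns and between genes, and the windows were not chosen as sites of Tet2 action.

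On either strand, the TATA-box letters TATAAA stood 30 bases before the start of S100a8 and 31 before that of S100a4, and 12.4% of all windows held them. The C/EBP-type letters TTNNGNAA, after the family of factors that drive granulocyte genes, occurred 117 bases upstream in S100a8 and at 236 and 130 bases in S100a9, and in 36.8% of all windows. The Ets-type letters GAGGAA occurred at 170 and 36 bases in S100a8, in no place in the window of S100a9, and in 23.3% of all windows. The E-box CAGCTG, a core that MyoD can bind, occurred at 50 and 22 bases upstream in S100a8 and in 13% of all windows. Among the other members, S100a3 held all 4 motifs, each in the window of at least 1 of its starts, S100a16 the Ets-type and E-box letters, and S100a11 the Ets-type letters. These matches describe the letters only. Of the 10 members, 9 had a RefSeq window, and S100a10 is the one without.

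S100a8 and S100a9 were the only members past the 2-fold mark, both higher in Tet2 KO. The authors' group value of S100a8 was 285 FPKM in WT and 941 FPKM in Tet2 KO, a ratio of 1.72 and a fold of 3.30 without the added 1. For S100a9 the values were 213 FPKM in WT and 781 FPKM in Tet2 KO, a ratio of 1.87 and a fold of 3.66. Thus 2 of 10 members were at least 2-fold higher, beside 2.08% of the 11692 genes, and 0 of 10 were at least 2-fold lower, beside 1.21%. These shares are also the background for the counts of the gene lists below. By ratio, S100a9 stood 39th and S100a8 59th from the top of the 11692 genes. The RNA is from bulk cultures, in which more cells of a type and more RNA per cell cannot be told apart.

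**Figure D1:**
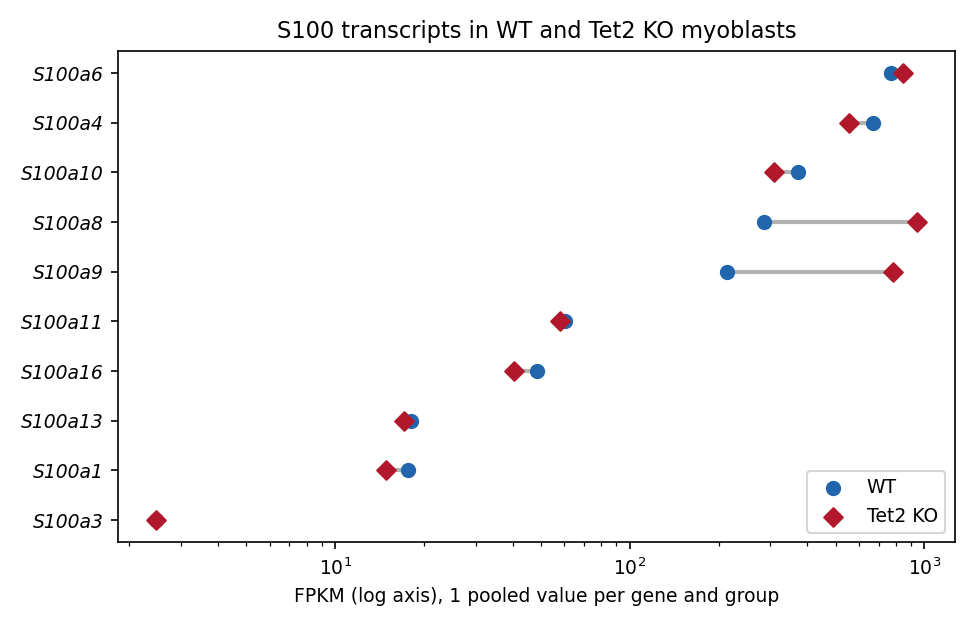
The authors' group value of each of the 10 S100 members in WT (circles) and Tet2 KO (diamonds), in FPKM on a log axis, ordered by the WT level. The long lines of S100a8 (285 to 941 FPKM) and S100a9 (213 to 781 FPKM) stand out against the short lines of the other 8 members.

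The calgranulin transcripts were already abundant in WT. Among the 11692 genes, S100a8 ranked 307th by level in WT and 93rd in Tet2 KO, and S100a9 ranked 420th and 119th. Within the 10 members, S100a8 moved from 4th to 1st place and S100a9 from 5th to 3rd. The pair kept a similar proportion to each other, with an S100a8 to S100a9 ratio of FPKM of 1.34 in WT and 1.20 in Tet2 KO, so both groups held somewhat more S100a8 than S100a9 transcript per length.

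Summed over the 10 members, FPKM was 2458 in WT and 3562 in Tet2 KO. S100a8 and S100a9 made up 20.3% of that sum in WT and 48.3% in Tet2 KO. The sum of the other 8 members was 1960 FPKM in WT and 1840 FPKM in Tet2 KO. The higher total of the family in Tet2 KO therefore came from its calgranulin pair.

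The 8 other members all had at least 1 FPKM in WT, and their ratios lay between -0.28 and 0.13 with a median of -0.15. Of these, 6 were lower and 2 higher in Tet2 KO by any amount. Over all 11692 genes the median ratio was -0.0044, the 5th and 95th percentiles were -0.40 and 0.44, and 72.1% of genes had a ratio within the range of the 8 members. The mean ratio of S100a8 and S100a9 was 1.79, which exceeded the median of the other members by 1.95, a 3.86-fold difference on this scale. The gap between S100a8 and the nearest other member, S100a6, was 1.59.

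**Figure D2:**
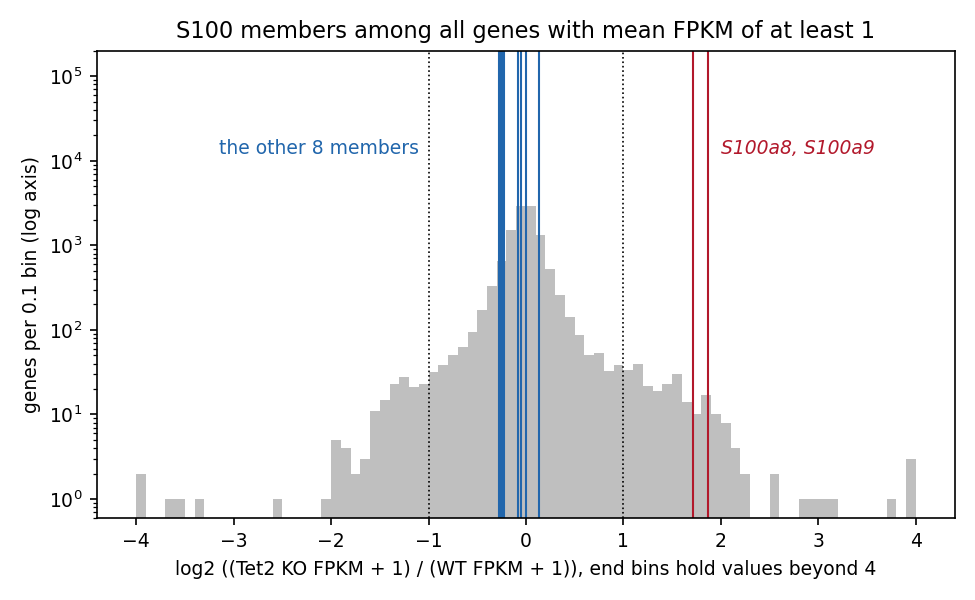
Histogram of the log2 ratio (Tet2 KO over WT, FPKM + 1) of the 11692 genes that averaged 1 FPKM or more, in bins of 0.1 on a log count axis, with vertical lines for the 10 S100 members and dotted lines at the 2-fold mark. The 8 other members sit in the centre, between -0.28 and 0.13, and S100a8 and S100a9 in the right tail at 1.72 and 1.87.

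Among the abundant mesenchymal members, S100a6 (calcyclin, a growth-related protein that binds Cacybp) had 772 FPKM in WT and 845 FPKM in Tet2 KO, a ratio of 0.13, and ranked 108th of all genes by level in both groups. S100a4 (metastasin, which binds nonmuscle myosin and alters cell motility) had 667 FPKM in WT and 554 FPKM in Tet2 KO, a ratio of -0.27. S100a10 (p11, the partner of Anxa2 at the membrane, which has lost the ability to bind calcium) had 373 FPKM in WT and 308 FPKM in Tet2 KO, a ratio of -0.28. In WT these were the 3 members with the highest levels, above both calgranulins, whereas in Tet2 KO S100a8 stood above all of them and S100a9 above S100a4 and S100a10.

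The members of middle level lay close together in both groups. S100a11 (calgizzarin, which binds Anxa1) had 60.2 FPKM in WT and 57.9 FPKM in Tet2 KO, a ratio of -0.05. S100a16, a broadly expressed member, had 48.4 FPKM in WT and 40.5 FPKM in Tet2 KO, a ratio of -0.25. The S100a11 values are uncertain, since 98.2% of its longest transcript also aligned elsewhere in mm9, at up to 98.6% identity, and the handling of such reads is not given in the sources used here. None of the other 9 members had such a second alignment of at least 100 bases at 95% identity or more.

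S100a13, which takes part in the release of Fgf1, had 18.1 FPKM in WT and 17.1 FPKM in Tet2 KO, a ratio of -0.08. S100a1, the striated muscle member that acts on the calcium pump and the ryanodine receptor, had 17.6 FPKM in WT and 14.9 FPKM in Tet2 KO, a ratio of -0.23. S100a3, known from the hair cuticle, was the lowest member, at 2.47 FPKM in both groups and a ratio of 0.00. The 5 members from S100a11 down to S100a3 kept their order of level in both groups, S100a11 being 6th and S100a3 10th.

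The order along the chromosome placed the difference at one end of the block. The 6 members from S100a1 to S100a6 had ratios between -0.27 and 0.13, and the 2 at the right end had 1.72 and 1.87. Between S100a6 and S100a8 lies S100a7a, related to the human skin protein psoriasin, 39.9 kb past S100a6 and 10.9 kb before S100a8. It had 0.163 FPKM in WT and 1.60 FPKM in Tet2 KO, a ratio of 1.16, but its mean was under 1 FPKM and it entered no count above.

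The block held 12 genes of the table, all of them S100 genes, so that no other gene lay among the members. Within 250 kb on either side, a window chosen after the values were seen, 8 genes averaged 1 FPKM or more, with ratios from -0.17 (Crtc2) to 0.12 (Dennd4b). Of these, 0 of 8 passed the 2-fold mark, beside 2.08% (higher) and 1.21% (lower) of all 11692 genes. Chtop, the nearest of the 8 to S100a1, had 86.1 FPKM in WT and 85.8 FPKM in Tet2 KO. The right flank, beyond S100a9, held only Pglyrp4, which was under 1 FPKM.

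**Figure D3:**
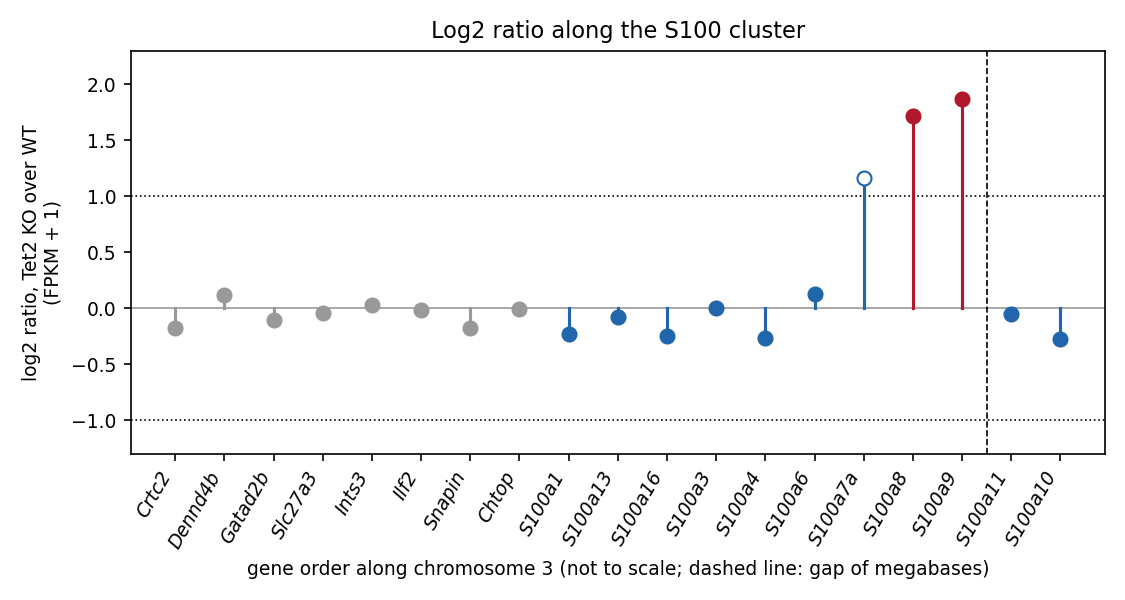
Log2 ratio (Tet2 KO over WT, FPKM + 1) of genes in their order along chromosome 3, not to scale, with flanking genes in grey, S100 members filled, S100a7a (mean under 1 FPKM) open, dotted lines at the 2-fold mark and a dashed line at the gap of 2825 kb. The genes from Crtc2 to S100a6 lie between -0.27 and 0.13, S100a7a, S100a8 and S100a9 at 1.16, 1.72 and 1.87, and S100a11 and S100a10 below 0.

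The other S100 genes of the table were at low levels. Besides S100a7a, the glial S100b had 0.801 FPKM in WT and 0.623 FPKM in Tet2 KO, the epithelial S100a14 had 0.0980 and 0.135 FPKM, S100g (calbindin-D9k, an intestinal calcium carrier) had 0.0624 and 0.0655 FPKM, and S100a5 was listed at 0 in WT and at 0.0794 FPKM in Tet2 KO. S100a2 and S100z were listed at 0 in both groups. The 6 fused S100 genes found, such as Tchh, large structural proteins of skin and hair with an S100 domain, summed to 0.119 FPKM in WT and 0.150 FPKM in Tet2 KO, and none reached a mean of 1 FPKM. S100a7a in Tet2 KO was the only value of these genes above 1 FPKM, and it was below the 2.47 FPKM of S100a3, the lowest member.

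Binding partners of S100 proteins were taken as a list of 20 genes, of which 18 averaged 1 FPKM or more. Their median ratio was -0.07, with 1 at least 2-fold higher and 1 at least 2-fold lower, beside 2.08% and 1.21% of all 11692 genes. The annexins were abundant and close between the groups, with Anxa2 at 633 FPKM in WT and 614 FPKM in Tet2 KO (ratio -0.04), Anxa1 at 816 and 914 FPKM (0.16) and Anxa6 at 396 and 363 FPKM (-0.12). The ratio of Anxa2 to S100a10, the 2 parts of 1 complex, was 1.70 in WT and 1.99 in Tet2 KO.

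Partners of S100a4 and S100a6 were similarly close between the groups. The nonmuscle myosin genes Myh9 and Myh10 had ratios of 0.04 and -0.01, Cacybp 0.02, and Sugt1, a cochaperone, -0.09. Ratios of the remaining general partners, namely Ahnak, Dnm1l, Capzb, Trp53, Plat and S100pbp, lay between -0.22 (S100pbp) and 0.05 (Trp53).

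Some partners of S100a1 in muscle had ratios further from 0 than S100a1 itself. Atp2a1, the calcium pump of fast muscle, had 35.5 FPKM in WT and 14 FPKM in Tet2 KO, a ratio of -1.29. Ryr1, the calcium release channel, had 15.3 FPKM in WT and 8.53 FPKM in Tet2 KO, a ratio of -0.77, and Pygm, muscle glycogen phosphorylase, had 15.5 and 8.0 FPKM, a ratio of -0.88. S100a1 had a ratio of -0.23 beside these. Atp2a2, the pump of slow and heart muscle and of other cell types, which S100a1 also acts on, was more abundant, with 153 FPKM in WT and 142 FPKM in Tet2 KO, and had a ratio of -0.11. In the list of 9 differentiated muscle genes, 6 of the 8 that averaged 1 FPKM or more were at least 2-fold lower in Tet2 KO, and the ratios of all 8 ran from Ttn (-0.93) to Acta1 (-1.60). The most abundant, Mylpf, had 790 FPKM in WT and 321 FPKM in Tet2 KO.

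Fgf2 was the partner past the mark in the other direction, at 0.940 FPKM in WT and 3.44 FPKM in Tet2 KO, a ratio of 1.19. It was under 1 FPKM in WT and passed the filter only through Tet2 KO, and 0 of the 17 partners at 1 FPKM or more in WT were at least 2-fold higher. Fgf1, whose release involves S100a13, was under 1 FPKM in both groups.

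Receptors and surface partners of the calgranulins formed a list of 7 genes, of which 5 reached the level filter, and 1 of these was at least 2-fold higher in Tet2 KO. Tlr4, the signalling receptor, had 5.62 FPKM in WT and 5.47 FPKM in Tet2 KO, a ratio of -0.03, and Bsg (CD147) had 218 and 215 FPKM, a ratio of -0.02. Ly96, the coreceptor MD-2, had a ratio of 0.23. Cd14 had 1.61 FPKM in WT and 3.8 FPKM in Tet2 KO, a ratio of 0.88, and the fatty acid carrier Cd36 had 2.16 and 7.35 FPKM, a ratio of 1.40. Ager, the receptor RAGE, was under 1 FPKM in both groups. Cd69, a surface protein of activated lymphocytes, had 0.122 FPKM in WT and 0.843 FPKM in Tet2 KO, also under the filter. The ratios of the 5 receptors past the filter thus ran from near 0 to past the mark. Without the added 1, Cd14 passed the mark too (1.24), and 2 of 5 were at least 2-fold higher.

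Of the 8 myeloid transcription factors listed, 7 reached the filter and 6 had a higher value in Tet2 KO, 2 of them by at least 2-fold. Spi1 (PU.1), which specifies the myeloid lineage, had 1.57 FPKM in WT and 6.71 FPKM in Tet2 KO, a ratio of 1.59. The other was Cebpe, a factor of late granulocyte maturation, named after its value was seen, with 0.864 and 2.87 FPKM and a ratio of 1.05. It was under 1 FPKM in WT and passed the filter only through Tet2 KO, where it was high, and of the 6 factors at 1 FPKM or more in WT 1 was at least 2-fold higher. Cebpb, the most abundant of the list and expressed in many cell types, had 48.6 FPKM in WT and 59.3 FPKM in Tet2 KO, a ratio of 0.28, and Stat3 had the lowest ratio, -0.02.

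Markers of myeloid cells moved with S100a8 and S100a9, and their part in the S100 result was not tested. Of 18 neutrophil markers, 16 reached a mean FPKM of 1, 16 of 16 had a higher value in Tet2 KO and 14 were at least 2-fold higher, with a median ratio of 1.74. Cd177, Retnlg and Mmp9 were under 1 FPKM in WT and passed the filter only through Tet2 KO, so that their direction was fixed by it, and 13 of the 13 others were at least 2-fold higher. None of the 18 was at 0, and their summed FPKM was 133 in WT and 508 in Tet2 KO. Ltf (lactoferrin) had the highest ratio, 2.50, from 11.7 FPKM in WT to 71.0 FPKM in Tet2 KO, Retnlg the lowest at 0.77, and Chil3 was the most abundant, at 40.3 and 110 FPKM. Without the added 1, the 13 others were again all at least 2-fold higher. Cd177, Retnlg and Mmp9, whose direction the filter fixed, made it 16 of 16. The median of all 16 was then 2.10, above S100a8 at 1.72 and S100a9 at 1.87. Chil3 then had the lowest ratio, 1.45, with Retnlg at 1.57, and Ltf still the highest, 2.60.

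Macrophage markers gave a like picture, since 16 of 18 reached the filter, 16 of 16 had a higher value and 14 were at least 2-fold higher, with a median ratio of 1.57. Adgre1 passed the filter only through Tet2 KO, and 13 of the 15 others were at least 2-fold higher. The summed FPKM of the 18 was 144 in WT and 550 in Tet2 KO. Lyz2, the lysozyme of myeloid cells, was both the most abundant and the one with the highest ratio, at 59.5 FPKM in WT and 253 FPKM in Tet2 KO (2.07), and Cd68 had the lowest, 0.94. Without the added 1, Adgre1 (2.36) and Fcgr1 (2.21) stood above Lyz2 (2.09). The median of the 16, Adgre1 included, was then 1.85. All of the 15 others were at least 2-fold higher, the lowest being Cd68 at 1.08. Adgre1 made it 16 of 16, but its direction was fixed by the filter. Of the proteins the sort selected against, Ptprc (CD45) and Itgam (CD11b) were already counted above among the neutrophil markers. Ptprc had 1.36 FPKM in WT and 5.67 FPKM in Tet2 KO, a ratio of 1.5, and Itgam had 2.09 and 10.1 FPKM, a ratio of 1.84. Both transcripts were thus listed above 1 FPKM in both groups of cultures labelled as myoblasts, and which cells carried them was not tested.

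S100a8 stood above every marker of both myeloid lists in level. Its FPKM was 24.4 times that of Ltf in WT and 13.3 times in Tet2 KO, 4.79 and 3.72 times that of Lyz2, and 7.08 and 8.55 times that of Chil3. The multiples of S100a9 were 18.2 and 11 for Ltf, 3.59 and 3.09 for Lyz2, and 5.29 and 7.10 for Chil3. Relative to Ltf and Lyz2 both calgranulins thus stood lower in Tet2 KO than in WT, and relative to Chil3 higher. These directions were set by the genes compared, so nothing is drawn from them. Ltf and Lyz2 had the highest ratios of their lists with the added 1. Chil3 had the lowest ratio of the neutrophil markers without it.

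**Figure D4:**
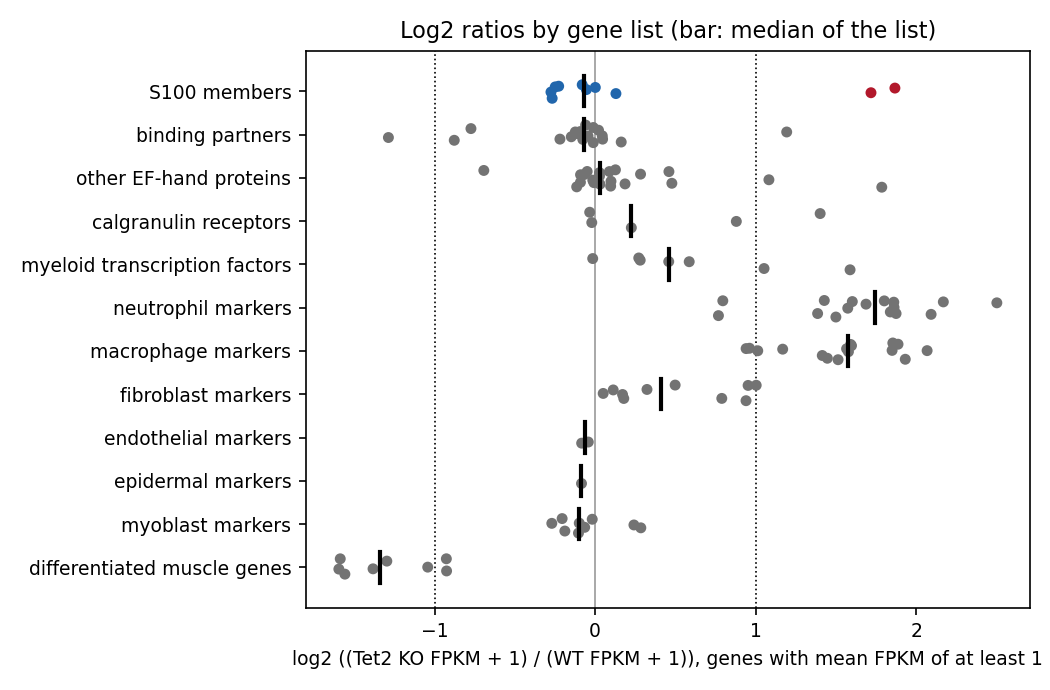
Log2 ratio (Tet2 KO over WT, FPKM + 1) of single genes (points) in 12 lists, for genes that averaged 1 FPKM or more, with list medians as black bars and dotted lines at the 2-fold mark. Among the S100 members, S100a8 and S100a9 (red) lie within the ranges of the neutrophil markers (0.77 to 2.50) and the macrophage markers (0.94 to 2.07). The other 8 (blue) lie within that of the myoblast markers (-0.27 to 0.28), save S100a10 at -0.28. Of all 11692 genes, 72.1% lie within the range of these 8.

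Markers of the labelled cell type were abundant in both groups. All 9 myoblast markers reached the filter, 0 of 9 passed the 2-fold mark and the median ratio was -0.10. The most abundant, Des (desmin), which also had the lowest ratio, had 449 FPKM in WT and 372 FPKM in Tet2 KO (-0.27), and Vcam1 had the highest ratio, 0.28. Itga7, selected for in the sort, had 199 FPKM in WT and 190 FPKM in Tet2 KO, a ratio of -0.07. The 8 other S100 members lay in nearly the same range of ratios as these markers. That range is not particular to them, since 72.1% of all 11692 genes lay within the range of the 8 members.

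Fibroblasts also express S100a4, S100a6 and S100a10, so their markers are given beside those members. Of 12 fibroblast markers, 10 reached the filter, and 10 of 10 had a higher value in Tet2 KO, 1 (Mfap5, 1.00) by at least 2-fold. The median ratio was 0.41, beside -0.0044 over all 11692 genes. The summed FPKM of the 12 was 468 in WT and 519 in Tet2 KO, most of it from Ly6a and Col3a1 (152 and 171 FPKM). Ly6a (Sca1), selected against in the sort, was the most abundant, with 278 and 288 FPKM, and had the lowest ratio of the 10 past the filter (0.05). Cd34 had 3.03 and 6.74 FPKM (0.94), and it was selected for in the sort, so it does not separate fibroblasts from the sorted cells. Mfap5 lies on the mark, and without the added 1 Mfap5, Dcn and Cd34 passed it, 3 of 10, with a median of 0.65. The part of fibroblasts in the levels of S100a4, S100a6 and S100a10 was not tested.

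Markers of endothelium and epidermis, which also express S100 genes, were at low levels. Only 2 of 8 endothelial markers reached the filter, Egfl7 (-0.04, the most abundant) and Pecam1 (CD31, selected against, -0.08). Of 8 epidermal markers only Krt10 did, at 1.40 FPKM in WT and 1.26 FPKM in Tet2 KO. The epidermal markers summed to 1.64 FPKM in WT and 1.47 FPKM in Tet2 KO, beside the higher value of the skin gene S100a7a in Tet2 KO.

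Other proteins with EF-hands were compared with the S100 members as relatives in calcium binding. Of 23 such genes, 21 reached the filter, and their median ratio was 0.03. In Tet2 KO 2 were at least 2-fold higher and 0 at least 2-fold lower, beside 2.08% and 1.21% of all 11692 genes. Calm2, a calmodulin gene and the most abundant, had 432 FPKM in WT and 398 FPKM in Tet2 KO, a ratio of -0.12. The gene with the highest ratio was Lcp1 (L-plastin, an actin bundler of leukocytes), with 3.94 and 16.1 FPKM (1.79), and the other gene past the mark, named after its value was seen, was Aif1 (Iba1, of macrophages), with 1.58 and 4.46 FPKM (1.08). Capns1, the small calpain subunit, had the lowest, -0.69.

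The genes nearest in pattern were sought by distance in the plane of log2(FPKM + 1) in WT and Tet2 KO, which rests on only 2 group values. S100a9 was the third nearest to S100a8, at 0.50, after Rps18 (0.28) and Rps2 (0.28), and S100a8 was the nearest to S100a9. The remaining genes of the nearest 5 were Hist1h2bj (0.75) and Hist1h3a (0.86) for S100a8, and Rps18 (0.62), Rps2 (0.78), Hist1h3b (0.83) and Hist1h2bn (0.85) for S100a9. These ribosomal and histone genes have near-identical copies, between 77.1% (Hist1h3b) and 100% (Hist1h2bn) of their transcript aligning elsewhere in mm9, so their values are uncertain. Apart from Rps18 and Rps2, no gene of the table lay closer to S100a8 than S100a9 did, and none lay closer to S100a9 than S100a8.

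Tet2 itself had 6.64 FPKM in WT and 5.79 FPKM in Tet2 KO, a ratio of -0.17. The value is for the whole gene, of which the KO allele lacks exon 3 alone, so it is no check of the deletion.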

How the data were processed

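RNA of 4 myoblast libraries, 2 per group, was prepared with the TruSeq RNA kit v2. Per the submitters' processing notes and the study's methods, the authors aligned read pairs to mm9 with TopHat2 (version 2.0.13) and estimated expression with Cuffdiff (version 2.2.1), and the gene annotation is not given in the sources used here. The FPKM values deposited by the authors were used, 1 per gene and group. How the libraries of a group were combined is not stated. The table's remaining columns hold the authors' own log2 fold change, test statistic, p-value, q-value and call for each gene, and none was used.

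Ratios used a pseudocount of 1, a filter of 1 FPKM averaged over both groups for counts, and a 2-fold mark. Named genes were all members, all other S100 genes, the partners and receptors past the filter, the extremes and the most abundant gene of each list, sort markers and the 5 nearest genes in pattern, and names outside this rule (flanking genes among them) were chosen after their values were seen. The members and lists were chosen with earlier results of these data known. Transcripts of GENCODE vM1 were aligned to mm9 with BLAST+ 2.17.0, at 95% identity or more over at least 100 bases, and alignments more than 20 kb outside the gene's own locus were counted. The scripts (Python 3.11.15, pandas 2.3.3) were tested on simulated data. Alternatives were pseudocounts of 0.1 and 0, no filter, a filter of 5 FPKM, rescaling to TPM, median centring, a 1.5-fold mark and leaving out single members.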

Additional observations from a re-analysis of the deposited data

How the results depend on the processing

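With 1 pooled FPKM per group there is no replicate spread, so a value was taken to hold where it stayed on its side of the 2-fold mark and within 1.5-fold of the main value, and a count where it stayed within 1.5 times. All 78 recomputed values of the S100 members and their neighbours held, but some of them could not have changed. The block held 0 non-S100 genes, so the count of neighbours within it was fixed. All members passed the filter of 1 FPKM, so dropping it altered nothing. Median centring cancels in the difference between the calgranulin pair and the other members. The counts and medians of the other gene lists were recomputed with pseudocounts of 0.1 and 0 after seeing the data, and 68 of 72 held, the exceptions being the counts at least 2-fold higher of calgranulin receptors (2 in place of 1) and fibroblast markers (3 in place of 1). The ratio of S100a8 was 1.72 and that of S100a9 1.87 under each other pseudocount and scaling, and the difference between this pair and the other members from 1.87 to 2.02 over all its alternatives. The median of the other members ranged from -0.23 to -0.08. The window of 250 kb around the block was added after seeing the data. No paired analysis was possible because the columns hold 1 pooled value per group, and no library could be left out for the same reason. Depth is unknown, so the precision of the low values of S100a3 and S100a7a cannot be given.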
